A study of Mus musculus with 6 samples.

Results

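The genes described here encode proteins of the mitochondrial ribosome. They were taken as every gene on the array whose symbol is Mrpl or Mrps followed by a number and at most 1 letter, and whose probe set names that gene alone. This gave 76 genes with 156 probe sets, out of 18193 named genes and 45037 probe sets tested. Each gene was read from its probe set with the highest mean over the 6 arrays of both genotypes. Genotype labels were not used. Where probe sets were close in level, a genotype difference could still settle the choice, as it did for Mrpl50. By their established places in the ribosome, 49 of the 76 belong to the large subunit and 26 to the small subunit. The large-subunit group includes Mrps18a and Mrps30, which were named for the small subunit before their place was known. Mrps36 belongs to neither, since its product is a component of the oxoglutarate dehydrogenase complex.

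The arrays measured erythroblasts from mouse bone marrow. The knockout group (KO) is 3 mice null for miR-144/451 and the control group is 3 wild-type mice (WT), with 1 array per mouse. In both groups Ter119 and CD71 double-positive cells of high forward scatter, that is, large erythroid cells carrying the transferrin receptor, were sorted into Trizol LS without culture. Mice are named here by the numbers in their titles: WT 497, 504 and 550, and KO 493, 548 and 551. The labels repeat each number as a miRNA construct ("mir 497" for the first), whose meaning they do not give, so that the number marks the mouse is a reading of the titles. Strain, age and litter are not given in the sources used here, nor how the locus was deleted. The deletion itself was not checked, since none of the probe sets used is named for either microRNA.

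Mitochondrial ribosomes translate the few proteins that the mitochondrial genome encodes, which are core subunits of the respiratory chain and of ATP synthase. Their RNA comes from mitochondrial DNA, but all their proteins are encoded in the nucleus, made in the cytoplasm and imported. Some of these proteins descend from the bacterial ribosome and others were added in the mitochondrial lineage. Erythroblasts depend on mitochondria for haem synthesis and lose them as they mature. The microRNAs missing from the KO mice come from a cluster on chromosome 11. Its main products, miR-144-3p and miR-451a, are shown to identify what was deleted, with the seed (bases 2 to 8) in capitals. They lie at chr11:78073047-78073066 and chr11:78073186-78073207 on the plus strand (GRCm38.p6, RefSeq).
mmu-miR-144-3p: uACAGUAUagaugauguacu
mmu-miR-451a: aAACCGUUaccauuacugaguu

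Mitochondrial ribosomal protein genes lay slightly higher in KO than in WT erythroblasts. Of the 76 genes, 66 had a higher mean in KO and 10 a lower one, the 10 including Mrpl3 and Mrpl14 at 0.00, where 44% of all named genes were higher and 56% lower. Their median difference was 0.17 on the log2 scale, with quartiles of 0.09 and 0.27, against a median of -0.04 over all named genes. None of the 76 passed the test (limma with Benjamini-Hochberg adjustment over all probe sets, threshold 0.05, 0 called), where 0.385% of all named genes did. At an unadjusted p under 0.05 there were 14, all 14 higher, a share of 18.4%. The background for either direction was 21%, so the share of small p-values was close to it. By direction the background was 8.34% higher and 12.7% lower, and 0 members were lower at that p. The count of 14 moved with the mice used. Dropping WT 504 gave 26, whereas dropping WT 497 gave 9, WT 550 gave 5 and KO 551 gave 8; dropping KO 493 or KO 548 gave 11 each. In these fits 5.72% to 7.56% of all named genes were higher at that p.

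**Figure D1:**
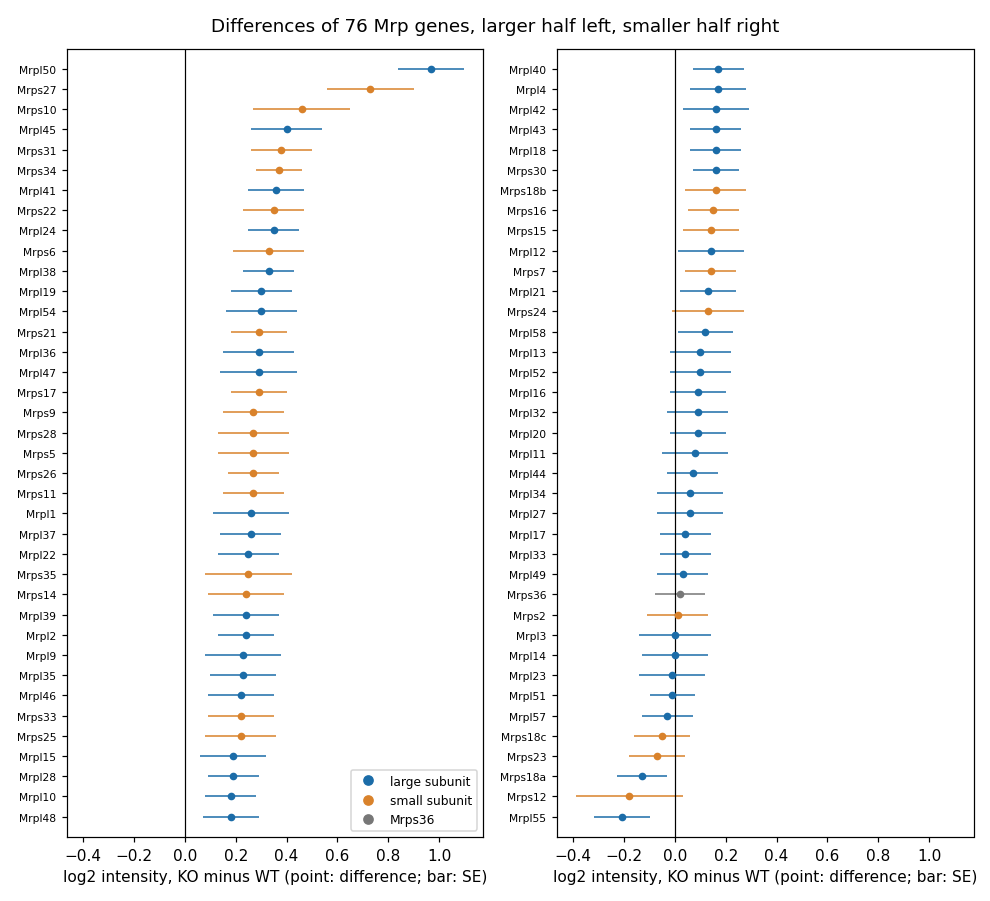
Difference in log2 intensity between KO and WT for each of the 76 genes (points) with limma's standard error (bars), coloured by subunit. Of the 76 points, 66 lie right of 0, and Mrpl50 at 0.97 and Mrps27 at 0.73 stand farthest out.

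Single genes were measured with an error of similar size to the shift. Standard errors ran from 0.0938 to 0.207 with a median of 0.119, and 23 of the 76 differences were within 1 standard error of 0. Differences over 0.2 occurred in 34 genes, over 0.3 in 12 and over 0.5 in 2. All 76 representative probe sets had a mean above 5.7, the median level of all probe sets. Among the 10753 named genes above that level, 46.7% had a higher mean in KO, 11.6% were higher at an unadjusted p under 0.05, and the median difference was -0.02.

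**Figure D2:**
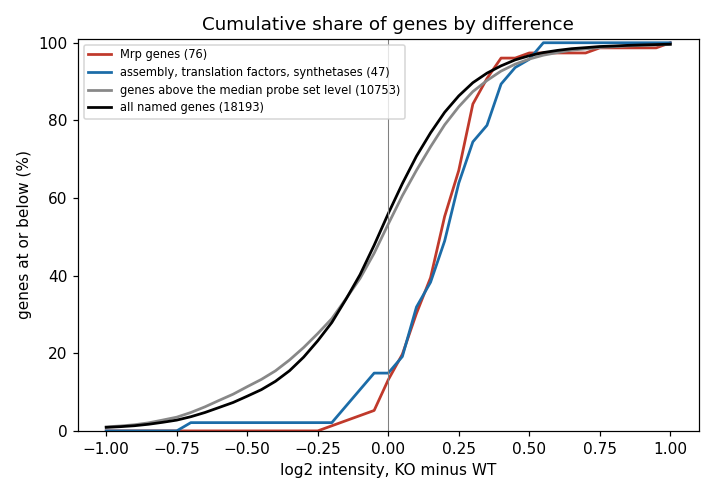
Cumulative percentage of genes (vertical axis) at or below each log2 difference, KO minus WT (horizontal axis), for the 76 mitochondrial ribosomal protein genes, 47 genes of mitochondrial ribosome assembly and translation, the 10753 brighter named genes and all 18193. At a difference of 0 the curves stand at 13.16% for the 76 genes and 55.98% for all named genes.

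By mouse, the mean log2 intensity over the 76 genes was 10.12 in WT 497, 10.27 in WT 504 and 10.07 in WT 550. It was 10.31 in KO 493, 10.32 in KO 548 and 10.39 in KO 551. The groups did not overlap, but WT 504 lay close to the lowest KO mice. Group means were 10.15 ± 0.11 in WT and 10.34 ± 0.04 in KO (SD, n = 3 each). WT 504 was the highest WT array for 62 of the 76 genes, and WT 550 the lowest for 46. Within KO the highest array was KO 551 for 36 genes. The spread was wider in WT than in KO for 58 genes. The mean over all named genes ran the other way, 7.06 to 7.13 in WT and 7.03 to 7.07 in KO.

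**Figure D3:**
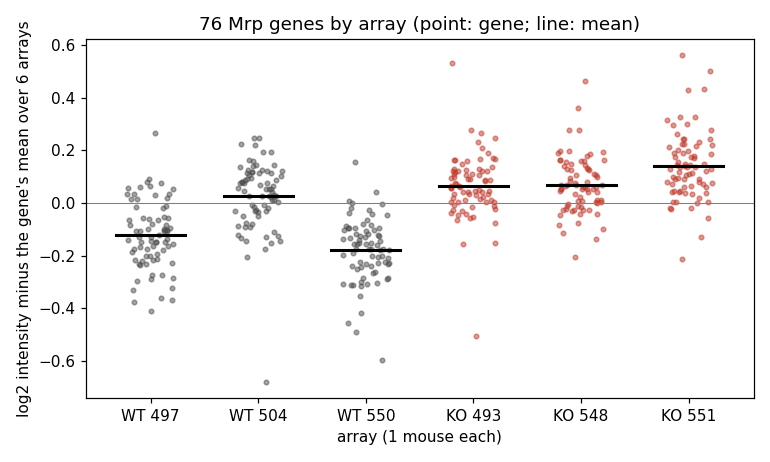
Each point is 1 of the 76 genes on 1 array, as its log2 intensity minus that gene's mean over the 6 arrays, and black lines are means. The means are -0.123, 0.027 and -0.18 for the WT mice, against 0.065, 0.07 and 0.142 for the KO mice, in the order of the axis.

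Counting genes whose 3 KO values all lay above their 3 WT values gave 24 of 76 (31.6%), where 12.5% of all named genes and 17.6% of the brighter ones did so. The reverse order held for 2 genes, Mrpl55 and Mrps18a (2.63%), against 16.2% of all named genes. WT 504 weighed on the first count, which was 57 without it (75%, with 17.3% over all named genes). With any other mouse left out it was 24 to 33, beside 15.3% to 17.5% of all named genes.

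Other measures differed between the same arrays. Array medians over all probe sets were 5.73 to 5.78 in WT and 5.62 to 5.68 in KO, and the 3' signal of the actin control exceeded its 5' signal by 1.65 to 1.67 (WT) and by 1.82 to 1.86 (KO) on the log2 scale. For the Gapdh control this was 1.03 to 1.09 (WT) and 1 to 1.05 (KO). Erythroid markers were bright, with means of 11.15 (Epb42) to 13.07 (Slc4a1) in the 7 of 10 measured. Of these 6 were lower in KO, with summed intensities of 40000 to 41900 in WT against 38000 to 39600. Signals of other blood cells were also present. Their markers had mostly lower means in KO, where 56% of all named genes did, except that megakaryocyte markers were mixed. Neutrophil and myeloid markers were lower in 10 of 10, with summed intensities of 50400 to 55300 in WT and 43300 to 48600 in KO. Macrophage markers were also lower in 10 of 10, from 14700 to 17300 down to 12000 to 13100. B cell markers were lower in 6 of 7, T and NK markers in 6 of 6, eosinophil, basophil and mast cell markers in 7 of 7, and megakaryocyte markers in 4 of 7. Their summed intensities in WT and KO were 4370 to 7500 and 2970 to 4020 for B cells, 1340 to 1820 and 725 to 1070 for T and NK cells, 3630 to 6250 and 2570 to 2950 for eosinophils, basophils and mast cells, and 6650 to 7050 and 6240 to 7520 for megakaryocytes. No marker was listed at 0. The dimmest were Il2rb at 4.25 and Cd3g at 4.56. The brightest were the neutrophil and myeloid markers S100a9 at 13.41 and S100a8 at 13.23, above every erythroid marker measured. None of these markers was called. The part of these signals, of the array medians and of RNA integrity in the difference of the 76 genes was not tested, and in bulk RNA fewer cells of a type and less RNA per cell cannot be told apart.

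Mrpl50, a mitochondria-specific protein of the large subunit, had the widest difference of the 76. Its log2 intensity was 9.19, 8.80 and 8.99 in WT 497, 504 and 550. In KO 493, 548 and 551 it was 10.01, 9.84 and 10.04. The groups were separated by more than their own ranges. The difference was 0.97 ± 0.13 (SE, n = 3 per group), a 1.96-fold higher intensity, with an adjusted p of 0.0506 (limma), just outside the threshold. It passed with a filter on dim probe sets (adjusted p = 0.0225), after which 2 members and 2.56% of named genes were called higher. It passed with an intensity trend and robust prior (0.00526), which called 5 members higher and 0 lower, against 2.37% and 2.04% of named genes. It also passed under quantile normalization (0.0334), cyclic loess (0.0469), median centring (0.0253), 1 probe set per gene (0.0385) or a pseudocount of 16 (0.0166). The second Mrpl50 probe set, at almost the same brightness (mean 9.42), did not show this. It read 9.38, 9.53 and 9.19 in WT and 9.50, 9.33 and 9.57 in KO, with overlapping groups and a difference of 0.10 ± 0.13. This second probe set was brighter than the first in every WT mouse and dimmer in every KO mouse. The first was thus taken as representative only through its KO values. The mean of both probe sets was at 0.54 (adjusted p = 0.0726). The 2 probe sets thus disagree on the size for this gene.

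Mrps27, a pentatricopeptide repeat protein of the small subunit, came next and has a single probe set. It read 8.18, 8.42 and 7.95 in WT and 8.67, 9.01 and 9.05 in KO. All KO values lay above all WT values, by less than the range within WT. The difference was 0.73 ± 0.17 (adjusted p = 0.108, limma), and the intensity trend brought it past the threshold (adjusted p = 0.0432).

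In the large subunit, 42 of 49 genes were higher and the median difference was 0.16, with 6 (12.2%) at an unadjusted p under 0.05, where 8.34% of all named genes were higher at that p. Mrpl45, which sits by the peptide exit tunnel and ties the ribosome to the inner membrane, read 7.52, 7.87 and 7.54 in WT and 7.89, 8.12 and 8.12 in KO. WT 504 lay just below KO 493, and the difference was 0.40 ± 0.14 (adjusted p = 0.193). Mrpl24, counterpart of a bacterial protein that acts early in large-subunit assembly, was tighter. It read 11.12, 11.26 and 11.15 in WT and 11.54, 11.51 and 11.53 in KO, a difference of 0.35 ± 0.10 (adjusted p = 0.141, and 0.0174 with the intensity trend). Mrpl41 read 11.76, 11.69 and 11.53 in WT and 12.09, 11.95 and 12.03 in KO, a difference of 0.36 ± 0.11 (adjusted p = 0.159, and 0.0244 with the trend). Its other 2 probe sets were at 0.43 and 0.51, so all probe sets of this gene pointed the same way. Mrpl38, of the central protuberance, was at 0.33 ± 0.10 and Mrpl19, which has a bacterial counterpart, at 0.30 ± 0.12. Mrpl18, whose bacterial counterpart binds the small ribosomal RNA of the large subunit, was at 0.16 ± 0.10 without overlap, and Mrpl52 at 0.10 ± 0.12.

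In the small subunit, 23 of 26 genes were higher and the median difference was 0.26, with 8 (30.8%) at an unadjusted p under 0.05 against the same 8.34%. Mrps34, a mitochondria-specific protein needed for small-subunit stability, read 9.09, 9.12 and 9.02 in WT and 9.43, 9.46 and 9.46 in KO. The spread within each group was narrow and the difference was 0.37 ± 0.09 (adjusted p = 0.125, and 0.0476 with the filter on dim probe sets). Mrps31 and Mrps22, also specific to mitochondria, were at 0.38 ± 0.12 and 0.35 ± 0.12. Mrps21, which has a bacterial counterpart, was at 0.29 ± 0.11 (adjusted p = 0.204, and 0.0485 with the trend). Mrps6 was at 0.33 ± 0.14, and its second probe set at 0.36. Mrps5 was at 0.27 ± 0.14 and Mrps35 at 0.25 ± 0.17, both with overlapping groups. Mrps17 was at 0.29 ± 0.11 and Mrps26 at 0.27 ± 0.10. Mrps10 had the third widest difference, 0.46 ± 0.19, but its groups overlapped, since WT 504 at 9.57 exceeded KO 493 at 9.49. Mrps17, Mrps26 and Mrps10 are named after their values were seen.

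**Figure D4:**
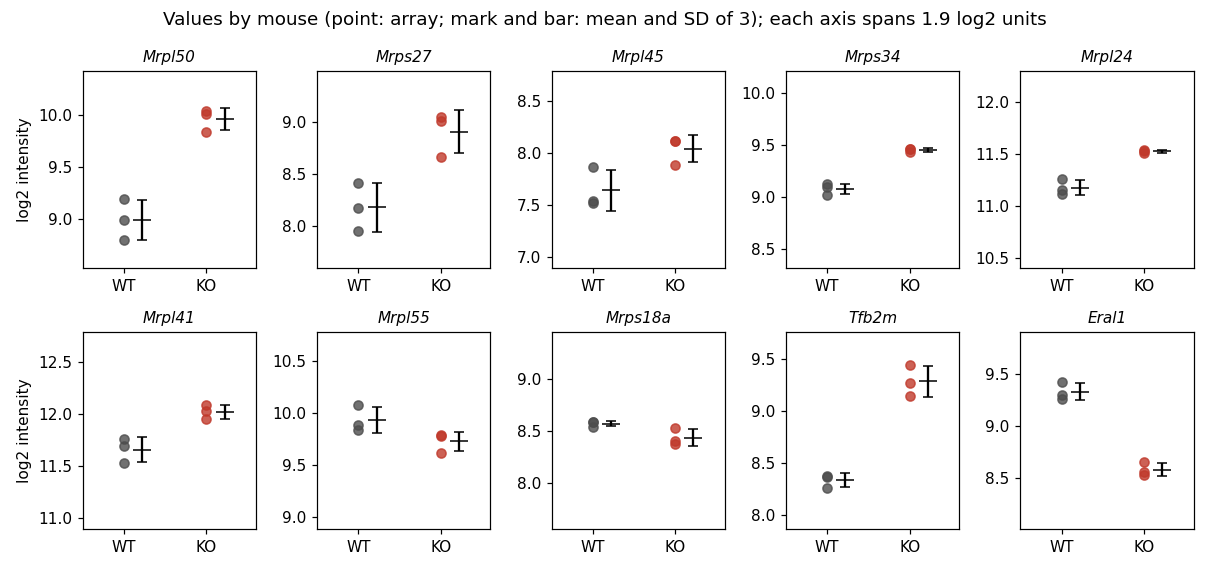
Log2 intensity of 6 members that were higher in KO, both members whose KO values all lay below WT, and the 2 called genes of mitochondrial translation and transcription (points, 1 per mouse) with mean and SD. The 6 come from the members named for rises without overlap between groups. KO and WT values do not overlap for Tfb2m and Eral1 either, and Tfb2m separates upward and Eral1 downward.

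The difference between subunits was not tested. Splitting the 75 ribosome proteins by origin instead, 39 of 45 with a bacterial counterpart were higher (median 0.16) and so were 26 of 30 that are specific to mitochondria (median 0.22). Of the 14 genes at an unadjusted p under 0.05, 5 had a bacterial counterpart (11.1% of 45) and 9 were specific to mitochondria (30% of 30), beside 8.34% of all named genes. The small-subunit proteins specific to mitochondria had the highest median of the 4 combinations, 0.26 over 10 genes, next to 0.25 over the 16 small-subunit genes with a bacterial counterpart. Small-subunit genes were also dimmer, with a WT mean of 9.88 against 10.26 for the large subunit. By level, the median difference was 0.26 in the 25 dimmest members and 0.16 in the 25 brightest. The part of level in the medians by subunit and origin was not tested.

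Few members pointed down. Mrpl55, the counterpart of a bacterial large-subunit protein, read 9.89, 10.08 and 9.84 in WT and 9.78, 9.79 and 9.62 in KO. The groups did not overlap and the difference was -0.21 ± 0.11 (adjusted p = 0.365). Mrps18a read 8.58, 8.58 and 8.54 in WT and 8.53, 8.40 and 8.37 in KO, a difference of -0.13 ± 0.10. It is counted as specific to mitochondria for its place in the large subunit. Its relatives, which derive from the same bacterial protein but sit in the small subunit, were at 0.16 ± 0.12 (Mrps18b) and -0.05 ± 0.11 (Mrps18c). Mrps18b was also counted as specific to mitochondria, and Mrps18c as having a bacterial counterpart. Mrps18c turned to 0.06 with each array centred on its median. Mrps36, of the oxoglutarate dehydrogenase complex, was at 0.02 ± 0.10. Mrps12, the decoding-centre protein, was at -0.18 ± 0.21. KO 493 stood at 9.47, whereas KO 548 and KO 551 were at 10.16 and 10.02, within the WT range of 9.83 to 10.24; without KO 493 the difference was 0.02.

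The other probe sets are further readings named for the same genes, on the same mice. Their positions were not checked, so some may share target sequence. For 42 members there were 80, of which 67 were higher in KO and 13 lower, with a median of 0.14. The 58 above the median level of all probe sets were higher in 56 and lower in 2, both of Mrpl51. The 22 at or below it were higher in 11 and lower in 11, with a median of 0. For 28 of the 42 genes all probe sets pointed the same way, and for 14 they did not, among them Mrpl42, with a dim probe set (mean 1.8) at -0.51 ± 0.23 and a bright one (mean 10.97) at 0.16 ± 0.13. Mrps31 (second probe set at 0.53), Mrps11 (0.27 and 0.55) and Mrps25 (0.22, 0.43 and 0.51) were among the 28. Mrps23 was among the 14. Its representative probe set was at -0.07 ± 0.11 and the others at 0.33 ± 0.11 and 0.34 ± 0.16, so its direction depends on the probe set. Mrpl51 was at -0.01 ± 0.09 by its bright probe set (mean 12.25) and at -0.29 and -0.70 by dimmer ones (means 8.08 and 7.83). For Mrpl3, 3 probe sets lay at 0.00, 0.05 and 0.08 and a dim one (mean 5.53) at 0.73. No probe set of any member was called. Mrps25, Mrps11, Mrpl42 and Mrpl3 are named after their values were seen.

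**Figure D5:**
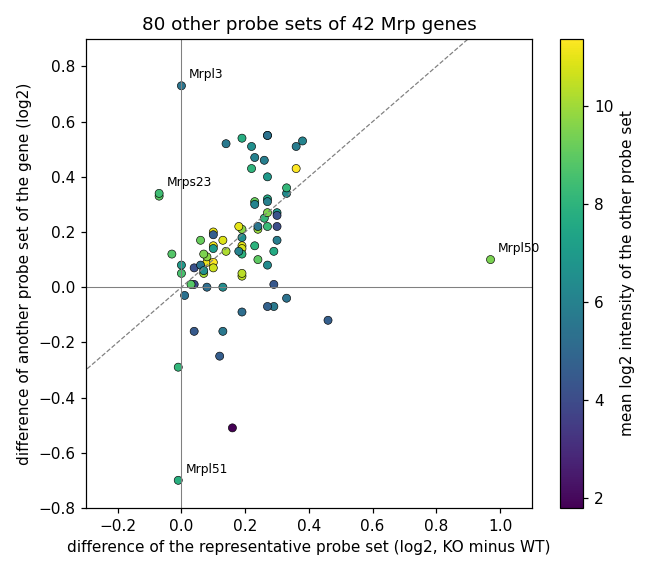
For each of 80 further probe sets of 42 members, its log2 difference (vertical axis) against that of the gene's representative probe set (horizontal axis), coloured by mean log2 intensity; the dashed line marks equality. Of the 80 points, 67 lie above 0, and Mrpl50 lies far from the line at 0.97 against 0.10.

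Of the 76 genes, 11 lie on chromosome 11 with the deleted locus (chr11:78073005-78073070 for the Mir144 hairpin, GRCm38.p6). The nearest, Mrps23, starts 10.1 Mb from it. Of the 11, 9 were higher and 2 lower, with a median of 0.14, and 57 of the 65 members elsewhere were higher, with a median of 0.19. Apart from Mrpl45, Mrpl38, Mrpl55 and Mrps23, the values were 0.25 ± 0.12 for Mrpl22 of the exit tunnel, 0.18 ± 0.10 for Mrpl10 and 0.14 ± 0.13 for Mrpl12 of the factor-binding stalk, and 0.14 ± 0.10 for Mrps7. Mrps24 was at 0.13 ± 0.14, Mrpl58, a peptidyl-tRNA hydrolase built into the large subunit, at 0.12 ± 0.11 and Mrpl27, near the peptidyl transferase centre, at 0.06 ± 0.13. Mrpl58 turned to -0.06 as the mean of its probe sets.

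Some letter patterns in promoters, which the choice of genes did not use, were more frequent in members than in all genes. RefSeq windows of 300 bases, from 250 before to 50 after a start site, matched 67 of the 76 genes, and shares are given over these and over all 27025 genes with such a window. Both strands were searched. The 27025 genes were not limited to those measured here or bright on the arrays. The letters CCGGAAG, a core bound by ETS factors such as GABPA, occurred in 37.3% of members and 9.93% of all genes. A form of the NRF1 site, GCGCA followed by any base and then GCGC, occurred in 17.9% and 5.19%. Its strict form, with T as that base, is counted within it and occurred in 4.48% and 1.07%. AAGATGGCG, a YY1 core, occurred in 11.9% and 1.64%. The GC box GGGCGG was in 50.7% and 38.2%, and the CCAAT box, searched as CCAAT, in 38.8% and 41.1%. The differences between KO and WT did not sort by these letters in 1 direction. The 25 members with the ETS letters had a median of 0.12 and the 42 without them 0.22. For the relaxed NRF1 letters, medians were 0.18 with (12 members) and 0.16 without, and for YY1 0.24 (8 members) and 0.16. The 3 members with the strict NRF1 letters are Mrpl39 (0.24 ± 0.13), Mrpl9 (0.23 ± 0.15) and Mrpl32 (0.09 ± 0.12), and their sites are shown with the letters in capitals, 5' to 3' in the direction of each gene. The windows are chr16:84735345-84735384 (minus), chr3:94443293-94443332 (plus) and chr13:14613100-14613139 (minus) on GRCm38.p6.
Mrpl39: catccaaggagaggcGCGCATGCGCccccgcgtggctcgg
Mrpl9: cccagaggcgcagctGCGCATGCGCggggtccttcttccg
Mrpl32: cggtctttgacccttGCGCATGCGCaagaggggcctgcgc

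Many members start back to back with another gene. In 20 of the 67 (29.9%) a gene on the opposite strand started within 300 bases upstream, against 9.44% of all genes with a window. The stretches between paired starts are shown for the members with the widest differences, for a pair of members and for Mrpl55, with the ETS, NRF1, YY1 and CCAAT letters in capitals and GC boxes unmarked. They are chr13:99344679-99344785 (plus) for Mrps27 and Ptcd2, chr4:49521084-49521175 (minus) for Mrpl50 and Zfp189, chr7:78783090-78783130 (plus) for Mrps11 and Mrpl46, and chr11:59202432-59202485 (plus) for Mrpl55 and 2610507I01Rik, each in the direction of the gene named first.
Mrps27: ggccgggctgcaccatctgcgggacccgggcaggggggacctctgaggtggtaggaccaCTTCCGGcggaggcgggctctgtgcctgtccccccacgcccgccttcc
Mrpl50: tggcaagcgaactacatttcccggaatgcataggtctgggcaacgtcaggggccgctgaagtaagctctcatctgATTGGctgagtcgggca
Mrps11: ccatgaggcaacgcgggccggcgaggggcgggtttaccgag
Mrpl55: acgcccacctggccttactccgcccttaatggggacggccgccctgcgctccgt

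The stretch by Mrps27 holds the ETS letters 48 bases upstream of its start, that by Mrpl50 holds the CCAAT box 17 bases upstream, and the other 2 hold none of these letters. The paired genes did not always differ as the member did. Across from Mrpl50 (0.97), Zfp189, a zinc finger gene, was at 0.11 ± 0.11. Across from Mrps27 (0.73), Ptcd2, a mitochondrial RNA-processing factor, was at 0.24 ± 0.12 and its groups did not overlap. Mrps11 and Mrpl46, both members and 42 bases apart, were at 0.27 ± 0.12 and 0.22 ± 0.13. Across from Mrpl55 (-0.21), the long noncoding RNA 2610507I01Rik read 7.96, 7.66 and 7.73 in WT and 6.36, 6.69 and 5.64 in KO. That is a difference of -1.55 ± 0.26 (adjusted p = 0.0698, limma), which passed with the filter on dim probe sets (0.0357), the intensity trend (0.0151) or the pseudocount of 16 (0.0286). Its second probe set was at -0.35 ± 0.17. The 20 members form 19 pairs, since Mrps11 and Mrpl46 face each other. The 18 partners that are no members had a median difference of 0.06, with 10 higher and 8 lower. These paired genes were named after their values were seen.

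Other genes of mitochondrial translation lay higher as well. In the lists of assembly factors, translation factors and aminoacyl-tRNA synthetases of mitochondria, 40 of 47 measured genes had a higher mean in KO, with a median of 0.21. Of the 19 assembly factors, 15 were higher (median 0.18), 0 were called higher and 1 was called lower. Of the 12 translation factors, 11 were higher (median 0.26) and 0 were called. Of the 16 synthetases, 14 were higher (median 0.24) and 0 were called. At an unadjusted p under 0.05 the 3 lists held 14 genes higher (29.8%) and 1 lower (2.13%), where 8.34% and 12.7% of all named genes were so. Mtfmt, which formylates the initiator tRNA, was at 0.55 ± 0.16 (adjusted p = 0.151) and Mrrf, the ribosome recycling factor, at 0.39 ± 0.13 (adjusted p = 0.181). The synthetases with the smallest p were Iars2, at 0.45 ± 0.12, and Hars2, at 0.28 ± 0.09. Ribosomal proteins under other symbols, 4 measured beyond the 76, were all higher (median 0.14, 0 called), among them Ptcd3 at 0.25 ± 0.12 and Dap3 at 0.17 ± 0.09.

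Of the assembly factors, 4 were lower. The RNA methyltransferases Mrm1 and Tfb1m were at -0.19 ± 0.11 and -0.19 ± 0.20 and the helicase Ddx28 at -0.09 ± 0.12, and only Mrm1 of these had no overlap between groups; these are named after their values were seen. The called one was Eral1, a GTPase that binds the small-subunit RNA and the protein-coding gene next to the deleted locus. It read 9.26, 9.42 and 9.30 in WT and 8.53, 8.55 and 8.65 in KO, and fell by 0.75 on the log2 scale (SE 0.10, adjusted p = 0.04998). Of its other 5 probe sets 1 was higher, at 1.02 ± 0.26, and the other 4 were at -0.74 to -0.51. Of these 4, 1 was also called, at -0.70 ± 0.09 (adjusted p = 0.0449, limma). The call by the representative probe set ended under quantile (adjusted p = 0.0563) and cyclic loess normalization (0.0503) and median centring (0.0533). It also ended with the mean of the gene's probe sets (-0.40, 0.102), a block that splits the title numbers into low and high (0.113) and an ordinary test (0.0633). Without any 1 of the 6 mice it ended as well (0.112 to 0.164). In those fits 0.0275% to 0.077% of named genes were called, against 0.385% with all mice. The Eral1 difference was then -0.79 to -0.70.

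Among 15 genes of mitochondrial transcription and nuclear regulation the direction was mixed, with 7 higher and 8 lower (median -0.03). The 1 called gene was Tfb2m, the initiation factor that lets the mitochondrial RNA polymerase open its promoters. It read 8.26, 8.37 and 8.38 in WT and 9.27, 9.15 and 9.44 in KO, and rose by 0.95 ± 0.12 (adjusted p = 0.0365, limma). The groups were separated by more than their own ranges, and the gene has 1 probe set. Its call ended with the block for low and high title numbers (adjusted p = 0.104), an ordinary test (0.0746), and without any 1 of the 6 mice (0.0949 to 0.126). In the fits without 1 mouse 0.0275% to 0.077% of named genes were called, and the Tfb2m difference was 0.87 to 1.02. Of the nuclear factors whose letters were searched, Gabpa was at 0.27 ± 0.10 (adjusted p = 0.222) and Nrf1 at -0.03 ± 0.11. The second Gabpa probe set was at 0.10 ± 0.11, and the other Nrf1 probe sets were at -0.03, -0.25 and -0.27. Yy1 was at -0.09 ± 0.09, with all KO values below all WT values. Tfam, which packages mitochondrial DNA, was at 0.23 ± 0.10 (adjusted p = 0.277). The second Tfam probe set was at 0.35 ± 0.10. Of the 15 genes, 4 were higher and 2 lower at an unadjusted p under 0.05 (limma). Over all named genes the shares were 8.34% and 12.7%. The 2 lower ones were Esrra at -0.34 ± 0.10 and the dim Ppargc1a (mean 4.58) at -0.66 ± 0.21. Gabpa, Nrf1, Yy1, Tfam, Esrra and Ppargc1a are named after their values were seen.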

How the data were processed

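Per the submitters' processing notes, the authors made the deposited intensity values with RMA (robust multi-array average), which summarises and normalizes the probes of all arrays together; version and background step are not given in the sources used here. All 45101 probe sets are linear intensities that return to log2 values of 2 decimals (100% within 0.0051). They were taken to log2 with no pseudocount or further normalization, and 64 controls were left out. Array medians still differ. The number of arrays limits the precision.

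Gene names came from GEO's platform annotation (34945 probe sets with 1 gene, 932 with several, 9160 with none), and positions from RefSeq for GRCm38.p6, which matched all 76 members. KO minus WT was tested with limma 3.58.1 in R 4.3.3 (lmFit, eBayes) over 45037 probe sets, with Benjamini-Hochberg adjustment, and the script was tested on simulated data. The labels do not say that samples came from separate litters or preparations, so p-values measure the spread between these 6 arrays.

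The members, the lists and the alternatives were chosen with earlier results of these data known. Subunit and origin were assigned from general knowledge. Members named were called genes, the 12 largest rises and falls without overlap, the 6 brightest and 6 dimmest, those on chromosome 11, the Mrps18 genes those with another probe set called, and those with probe sets at an unadjusted p under 0.05 in both directions (no member met the last 2); per list, called genes or the 2 smallest p. Alternatives were other normalizations, probe set choices, filters, variance models, a pseudocount, a block for low and high title numbers and leaving out each mouse.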

Additional observations from a re-analysis of the deposited data

How the results depend on the processing

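The lean toward higher values in KO held under every normalization tried, while the count of small p-values did not. Called members were 0, but some were called higher under alternatives, given here with the share of named genes called higher: 1 with quantile normalization (0.379%), 1 with cyclic loess (0.275%), 1 with median centring (0.813%), 1 with 1 probe set per gene (0.506%), 1 with the pseudocount of 16 (1.49%), 2 with the filter on dim probe sets (2.56%) and 5 with the intensity trend (2.37%). Members at an unadjusted p under 0.05 were 14, but 38 with median centring (all named genes 15.5% higher), 29 with the trend (10.1%) and 22 with the pseudocount (9.64%), and 5 to 26 with 1 mouse left out. Median centring moved the median of all named genes by 0.11, to 0.07, and their share higher from 44% to 61.2%. The members' median was then 0.29, with 3 lower and 50 without overlap (65.8%, with 22.8% over all named genes). It stood 0.21 above the median of all named genes, as before centring. Centring cannot change this gap, since it shifts all genes of an array alike. With quantile normalization the gap was 0.16, and with cyclic loess 0.17. The count without overlap was added after seeing the data and was 24 to 57 with 1 mouse left out. In those fits 15.3% to 17.5% of all named genes were without overlap in that direction. Leaving out mice gave medians of 0.13 to 0.24 and 7 to 14 members lower. Of 950 values of 56 named genes under the alternatives, 902 kept direction and side of the threshold. Mrpl3 and Mrpl14, at 0.00, have no direction and are not counted. Some alternatives change only the test or the adjustment, so direction could not change there, and most of these genes were far from the threshold. Of the called genes, Eral1 lost its call in 12 of 17 settings and Tfb2m in 8. Reversed values were Mrpl51 (0.10), Mrps23 (0.04), Mrps18c (0.06) and Nrf1 (0.08) with median centring, Mrpl58 (-0.06) and Mrps23 (0.20) with probe sets averaged, and Mrps23 (0.33) when _x_at and _s_at probe sets were dropped. With 1 mouse left out, values on both sides of 0 were -0.04 to 0.01 for Mrpl51, -0.03 to 0.15 for Mrpl27, -0.32 to 0.02 for Mrps12, -0.03 to 0.05 for Mrps36, -0.09 to 0.01 for Nrf1, -0.10 to 0.11 for Mrpl3 and -0.08 to 0.10 for Mrpl14. The cause was not tested. No paired analysis was possible because no mouse number occurs in both groups.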

Other observations

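Some probe sets name a mitochondrial ribosomal protein gene together with another gene and were kept out of the 76. The probe set shared by Mrpl30 and Gm6238 was at 0.09 ± 0.11 (mean level 11.72) and a dim second one (5.02) at 0.01. That of Mrpl53 and Ccdc142 was at -0.04 ± 0.10. The probe set shared by Nme3 and Mrps34 was at 0.07 ± 0.11, where the probe set of Mrps34 alone was at 0.37 ± 0.09.

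The genes whose values over the 6 arrays were most like the mean of the 76 were Kcnk7 (Pearson r = 0.9983), Cnpy2 (0.9918), Gtf3c6 (0.9916), Sucla2 (0.9914) and Senp5 (0.991). They were picked as the highest of 18117 genes over only 6 arrays that include the genotype difference, and 436 of those genes had r above 0.9, so the values are a description.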
